A study of Mus musculus with 11 samples.

Results

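The E2F and retinoblastoma family genes were followed in NSC34, a mouse cell line made by fusing neuroblastoma cells with embryonic spinal cord cells and used as a model of motor neurons. The family was taken as the probe sets annotated with exactly 1 of 10 symbols, E2f1 to E2f8, Rb1 and Rbl1. Of these 10 genes 9 were measured, out of 15803 genes on the arrays, and no probe set of the annotation used here carries the symbol E2f3. The 9 measured genes had 136 probe sets. RNA was read on 11 arrays, 4 from cells with a hairpin against Tardbp (shTardbp 1, 2, 3 and 4), 4 from cells with a hairpin against GFP (shGFP 1, 2, 3 and 5) and 3 from cells with a hairpin against Renilla luciferase (shLuciferase 1, 2 and 4). All 3 groups carried a pSUPERIOR hairpin vector brought in with lipofectamine, and were grown out as stable clones under puromycin. It is not stated whether the arrays within a group hold RNA of different clones or cultures, and p-values therefore cover the spread between arrays alone, which may be technical. The probe sets of a gene, on the log2 scale, were averaged into its value, and a change is the shTardbp mean minus the mean of both control group means unless another control is named. A gene was called changed at a limma adjusted p under 0.05 over all genes.

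E2F proteins are transcription factors that bind the promoters of genes needed for DNA synthesis and cell division. E2F1, E2F2 and E2F3 are known as activators, E2F4 and E2F5 act mainly as repressors in complexes with pocket proteins, E2F6 represses without pocket proteins in Polycomb-type complexes, and E2F7 and E2F8 are atypical repressors that bind DNA without a DP partner. The pocket proteins RB1, p107 (gene Rbl1) and its relative from Rbl2 hold E2Fs in check until cyclin-dependent kinases phosphorylate them. E2f1, E2f2, E2f7, E2f8 and Rbl1 are themselves known as E2F target genes, and differentiating neurons leave the cell cycle with the pocket proteins engaged.

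Promoter windows of 300 bases, 250 before and 50 after the RefSeq transcript start (GRCm38.p6), were at hand for 7 of the 10 genes and are printed for the genes that fell and held a match to a known cell cycle element. The windows of E2f4, E2f5 and Rb1 were not used here. An E2F-type motif was taken as TTTCCCGC, TTTCGCGC, TTTGCCGC or TTTGGCGC, and the cell cycle genes homology region (CHR), the element bound by the MuvB complex, as TTTGAA, each on both strands. Capitals mark a match, and the 250 bases before the start are printed in the gene's direction.
Rbl1, chr2:157204535-157204784, minus strand: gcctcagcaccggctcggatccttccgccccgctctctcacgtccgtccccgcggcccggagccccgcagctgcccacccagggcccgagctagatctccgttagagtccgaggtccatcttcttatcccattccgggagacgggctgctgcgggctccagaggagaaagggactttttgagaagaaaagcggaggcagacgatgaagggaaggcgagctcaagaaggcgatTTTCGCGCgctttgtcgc
E2f7, chr10:110745189-110745438, plus strand: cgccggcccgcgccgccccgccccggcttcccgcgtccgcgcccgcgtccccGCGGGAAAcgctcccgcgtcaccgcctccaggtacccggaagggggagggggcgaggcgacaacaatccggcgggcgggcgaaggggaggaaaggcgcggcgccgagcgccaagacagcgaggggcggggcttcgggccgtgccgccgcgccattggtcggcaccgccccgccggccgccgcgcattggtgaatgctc
For E2f2, whose match lies just after the start, and for E2f8, whose window lies inside the gene's RefSeq span, only a stretch of 30 bases around the match is given.
E2f8, chr7:48881599-48881628, minus strand: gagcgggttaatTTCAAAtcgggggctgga
E2f2, chr4:136172294-136172323, plus strand: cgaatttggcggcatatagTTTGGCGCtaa

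In Rbl1 the E2F motif began 18 bases before the start (-18), in E2f7 at -198 and in E2f2 at 40 bases into the transcript, while E2f8 had the CHR at -20 and no E2F motif of these 4 spellings. A second listed E2f2 promoter had the CHR at -31. The first listed E2f3 window had both elements, which did not overlap, and the second E2f3 window had neither. The windows of E2f1 and E2f6 held neither element. The starts used for E2f1, E2f8 and E2f6 lie 466, 477 and 56 bases inside the gene's RefSeq span. Those of the second E2f2 and second E2f3 windows lie 8508 and 1673 bases inside. The sequence before the outermost start was therefore not searched for E2f1 and E2f8, and was searched only in part for E2f6. Over all 32851 promoter windows, 2.26% held the E2F motif and 17.9% the CHR, against 4 and 3 of the 9 windows of this family. A match describes the letters only and shows no binding.

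Tardbp, which encodes TDP-43 and is the target of the hairpin, was lower in all 4 shTardbp arrays, at 8.82, 8.80, 8.997 and 8.91, against 9.08 to 9.42 in shGFP and 9.20 to 9.38 in shLuciferase (log2 change -0.40; exact two-sided permutation test of 4 against 7 arrays, p = 0.00303, the smallest this design can give). That test takes no account of the array code letter described next, and with the letter as a block the Tardbp change was -0.29 (adjusted p = 0.173). Array medians ran from 6.82 to 6.92. Array codes in the labels start with the letter P for shTardbp 1 to 4 and shLuciferase 4 and with C for the remaining 6 arrays, and the meaning of the letters is not given. The single control with the letter of the shTardbp arrays is thus shLuciferase 4. With the letter as a block, the letter's effect is read only from shLuciferase 4 against shLuciferase 1 and 2. All shTardbp changes with that block therefore rest on shLuciferase 4. Of 14 neuronal markers measured 1 was higher in shTardbp and none was lower, where 13.5% of all genes rose and 17% fell. The higher one was the vesicular acetylcholine transporter gene Slc18a3 (log2 change 0.63, SE 0.0920, adjusted p = 0.000129), read by 1 probe set. Slc18a3 was 0.86 higher against shGFP and 0.40 higher against shLuciferase, and the controls differed in it (shGFP minus shLuciferase -0.46, adjusted p = 0.0160). Against shGFP 4 of the 14 were higher and 2 lower, where 12.4% of all genes rose and 15.5% fell. Against shLuciferase 2 were higher and 0 lower, where 11.8% of all genes rose and 14.3% fell. Between the controls 6 of the 14 differed, where 11.1% of all genes did, with Isl1 1.11 higher in shGFP than in shLuciferase. The choline acetyltransferase gene Chat lay at 4.35 in shTardbp, 4.24 in shGFP and 4.17 in shLuciferase. Its values were under the lower quartile of each array (4.46 to 4.57), as were those of Mnx1 and Dcx. These motor neuron and young neuron markers were thus not shown to be above background. In each group they were the only 3 of the 14 neuronal markers with a mean under the quartile. The rest lay above it, among them Prph (12.5), Stmn2 (12.1) and Isl1 (8.15) in shTardbp. Markers of other cells averaged 4.83 to 5.01 per array in shTardbp, 4.93 to 5.01 in shGFP and 4.85 to 4.97 in shLuciferase, and of 20 measured Pdgfrb, Pecam1 and Mbp were higher and Dcn, a fibroblast proteoglycan gene, was lower (log2 change -1.61). Pdgfrb was at 0.04 against shGFP (adjusted p = 0.822) and 0.79 against shLuciferase, and Dcn was 1.14 higher in shGFP than in shLuciferase. The part of these markers in the results was not tested.

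Most of the family was lower in Tardbp-depleted cells, with calls in the 2 measured activators and in 4 of the 5 repressor E2Fs. The calls of E2f1 and E2f5 were not steady, as given below. Of the 9 measured genes 7 fell and none rose, where 17% of all genes fell, 13.5% rose and 30.5% changed in either direction. With the code letter as a block 5 fell (E2f4, E2f5, E2f7, E2f8 and Rbl1), where 8.14% of all genes did. The 7 called without the block were E2f1, E2f2, E2f4, E2f5, E2f7, E2f8 and Rbl1, while E2f6 and Rb1 did not pass. The share of all genes includes dim ones, and calls were more frequent among brighter genes. When only the 7901 genes above the median level were tested, 2313 of them fell and 4016 changed in either direction. Of the 8 family genes in that fit, which leaves out E2f2, 6 fell and E2f6 rose (adjusted p = 0.0426). The median change of the 9 genes was -0.34, against 0.00717 over all 15803 genes. In 5 of the 9, E2f2, E2f4, E2f7, E2f8 and Rbl1, all 4 shTardbp arrays lay below all 7 controls and in none above them, placements seen in 9.82% and 8.45% of all genes (18.3% in either direction). The genes were chosen with earlier results of these data known, so the counts describe the family and give no independent support. In bulk RNA, fewer cells in S phase or mitosis and less RNA per cell cannot be told apart.

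**Figure D1:**
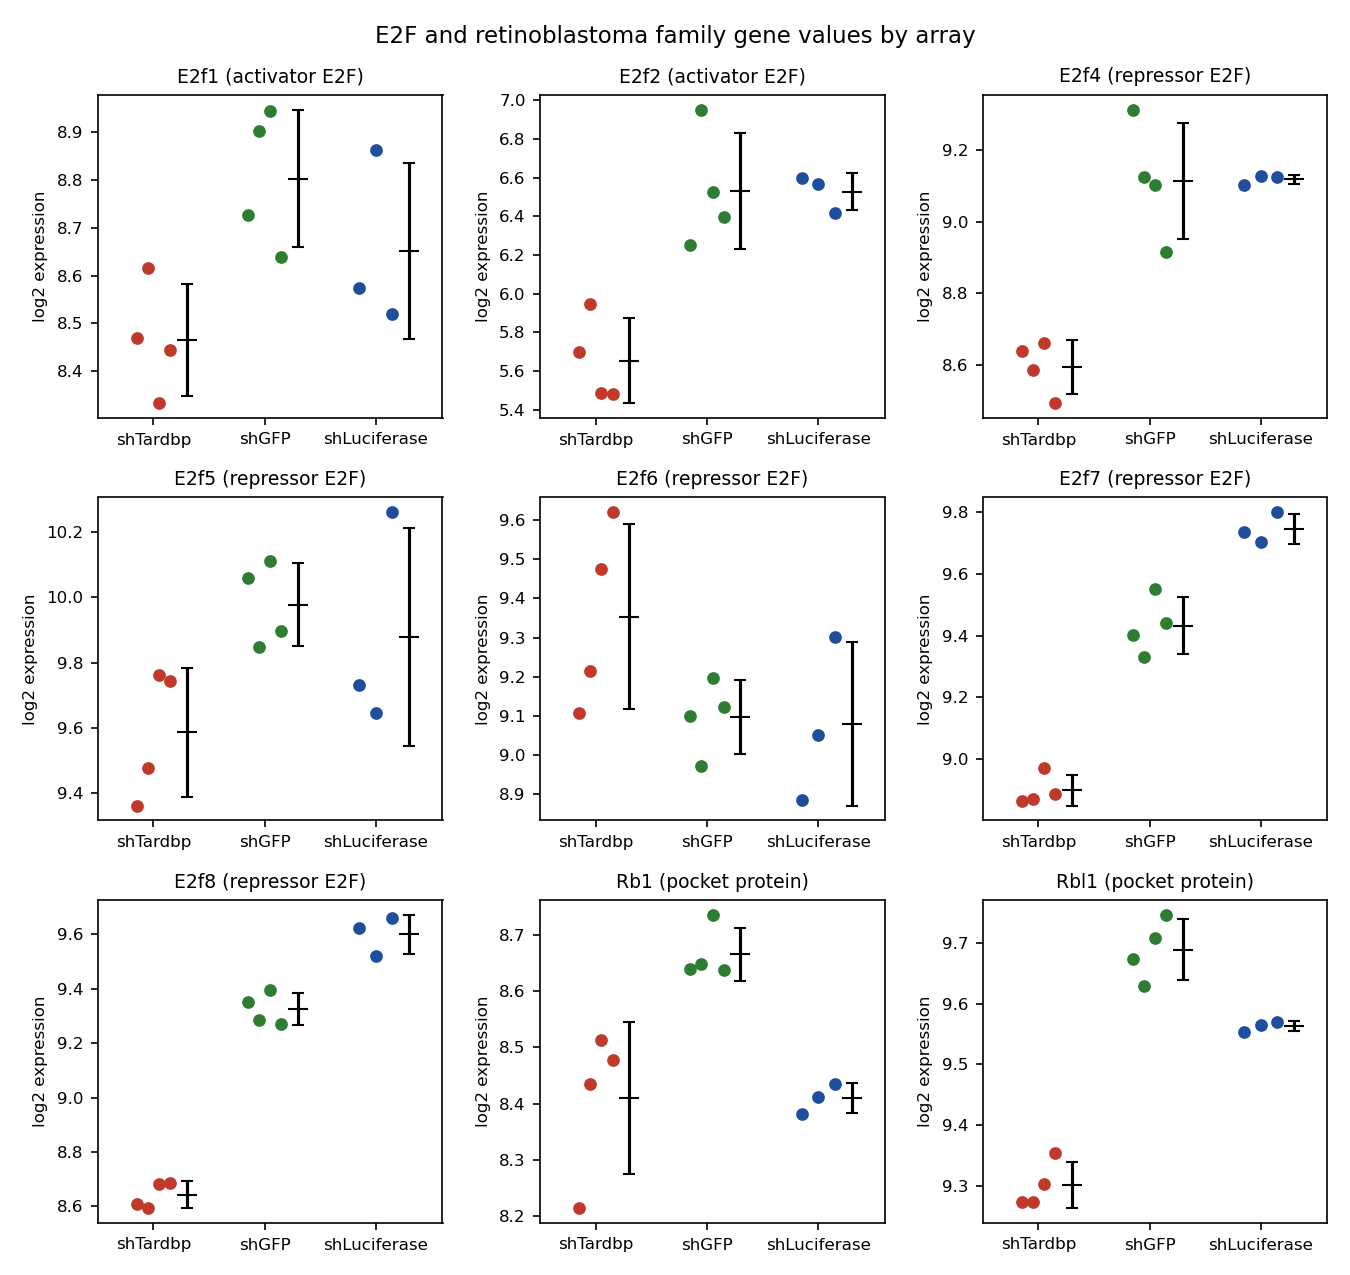
Gene value on the log2 scale (vertical axis) of each of the 9 measured genes on every array, with shTardbp in red, shGFP in green and shLuciferase in blue, and the group mean with its SD beside the points. The shTardbp points of E2f2, E2f4, E2f7, E2f8 and Rbl1 lie below every control point, whereas those of E2f1, E2f5, E2f6 and Rb1 overlap the controls.

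Among the activators, E2f2 changed most. E2f2 was at 5.70, 5.95, 5.49 and 5.48 in shTardbp 1 to 4, against 6.25, 6.95, 6.52 and 6.40 in shGFP 1, 2, 3 and 5 and 6.60, 6.57 and 6.42 in shLuciferase 1, 2 and 4. All shTardbp arrays were below all controls, and both control groups had nearly the same mean. The fall was 1.84-fold (log2 change -0.88, SE 0.122, 95% confidence interval -1.14 to -0.61, adjusted p = 9.10e-05). With the code letter as a block the change was -0.74 with adjusted p = 0.0565. E2f1, the founding member of the family, moved less, at 8.47, 8.62, 8.33 and 8.44 in shTardbp, against 8.73, 8.90, 8.94 and 8.64 in shGFP and 8.57, 8.86 and 8.52 in shLuciferase. The highest shTardbp array (8.62) exceeded 2 of the 3 shLuciferase arrays, so the groups overlapped. Its change was -0.26 (SE 0.0849, 95% confidence interval -0.45 to -0.08, adjusted p = 0.0302). This E2f1 call was lost without shGFP 2, shGFP 3, shLuciferase 2 or any of shTardbp 1, 3 and 4 (adjusted p = 0.0515 to 0.114), and with the code letter as a block the change was -0.10 (adjusted p = 0.723). Against shLuciferase 4 alone the mean of shTardbp was 0.05 lower for E2f1 (log2 difference -0.05) and 0.76 lower for E2f2 (-0.76).

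The pocket-protein-dependent repressors fell as well. E2f4, the E2F that sits on promoters of resting cells together with pocket proteins, was at 8.64, 8.58, 8.66 and 8.49 in shTardbp, against 9.31, 9.12, 9.10 and 8.91 in shGFP and 9.10, 9.13 and 9.12 in shLuciferase. Every shTardbp array was below every control, and the 3 shLuciferase arrays were nearly equal. The fall was 1.44-fold (log2 change -0.52, SE 0.0709, adjusted p = 7.23e-05). E2f5, its closest relative, was at 9.36, 9.48, 9.76 and 9.74 in shTardbp, against 10.06, 9.85, 10.11 and 9.90 in shGFP and 9.73, 9.64 and 10.26 in shLuciferase. All shTardbp arrays lay below all shGFP arrays, but shTardbp 3 and 4 lay above shLuciferase 1 and 2, and shLuciferase 4 was the highest of all 11 arrays. The change of E2f5 was -0.34 (SE 0.117, adjusted p = 0.0389). Its call was lost with the median of the probe sets (-0.25, adjusted p = 0.105), with array weights (-0.22, adjusted p = 0.0754), with dim probe sets left out or quantile normalization again, and without shGFP 1, shGFP 3, shLuciferase 4, shTardbp 1 or shTardbp 2 (adjusted p = 0.0587 to 0.143). With the code letter as a block, a fit that rests on that high shLuciferase 4 array, the E2f5 change was -0.82 (adjusted p = 0.00611).

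E2f6, the Polycomb-linked repressor, was the one member with a higher mean in shTardbp. It was at 9.11, 9.21, 9.47 and 9.62 in shTardbp, against 9.10, 8.97, 9.20 and 9.12 in shGFP and 8.89, 9.05 and 9.30 in shLuciferase. The shTardbp arrays spanned a wide range, with shTardbp 3 and 4 above every control and shTardbp 1 and 2 among them. The change was 0.26 (SE 0.102) and did not pass (adjusted p = 0.0671). Its value hung on single arrays and settings, with 0.32 (adjusted p = 0.0254) without shLuciferase 4, 0.35 (adjusted p = 0.0230) without shTardbp 1, 0.18 (adjusted p = 0.243) without shTardbp 4, -0.01 (adjusted p = 0.971) with the code letter as a block, and 0.22 (adjusted p = 0.0403) with the replicate number as a block.

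The atypical repressors E2f7 and E2f8 had the smallest adjusted p-values of the family. E2f8 was at 8.61, 8.59, 8.68 and 8.69 in shTardbp, against 9.35, 9.28, 9.40 and 9.27 in shGFP and 9.62, 9.52 and 9.66 in shLuciferase. The 3 groups formed 3 separate bands, with shTardbp lowest and shLuciferase highest. The change of E2f8 was -0.82 (95% confidence interval -0.94 to -0.70, adjusted p = 1.65e-07), and a change this large or larger was seen in few genes, since it lay at the 97.8th percentile of absolute changes over all genes. E2f7 was at 8.86, 8.87, 8.97 and 8.89 in shTardbp, against 9.40, 9.33, 9.55 and 9.44 in shGFP and 9.74, 9.70 and 9.80 in shLuciferase. The same order of 3 bands appeared. The fall of E2f7 was 1.62-fold (log2 change -0.69, SE 0.0575, 95% confidence interval -0.82 to -0.57, adjusted p = 1.06e-06). Against shLuciferase 4 alone, the control with the same code letter, the shTardbp means were 0.90 (E2f7, -0.90) and 1.02 (E2f8, -1.02) lower on the log2 scale.

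Of the pocket protein genes, Rbl1 fell and Rb1 did not pass. Rbl1, which encodes p107, was at 9.27, 9.27, 9.30 and 9.35 in shTardbp, against 9.67, 9.63, 9.71 and 9.75 in shGFP and 9.55, 9.56 and 9.57 in shLuciferase. The groups did not overlap, and the spread within each was small (SD 0.0378, 0.0502 and 0.00834 on the log2 scale, n = 4, 4 and 3). The change was -0.32 (SE 0.0505, adjusted p = 0.000219), a 1.25-fold fall. Rb1, the retinoblastoma tumour suppressor, was at 8.21, 8.43, 8.51 and 8.48 in shTardbp, against 8.64, 8.65, 8.74 and 8.64 in shGFP and 8.38, 8.41 and 8.44 in shLuciferase. The shTardbp arrays were all below shGFP but lay on either side of shLuciferase. The change of Rb1 was -0.13 (SE 0.0634, 95% confidence interval -0.26 to 0.01, adjusted p = 0.162). Rbl2, the remaining pocket protein gene, which is not a member here, was at 8.58 to 8.73 in shTardbp, 8.58 to 8.79 in shGFP and 8.404 to 8.55 in shLuciferase, with a change of 0.05 (SE 0.0601, adjusted p = 0.612).

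The next question was how far these values depended on the control. Against shGFP 8 of the 9 genes fell (all but E2f6, where 15.5% of all genes fell, 12.4% rose and 27.9% changed), and against shLuciferase 5 fell (E2f2, E2f4, E2f7, E2f8 and Rbl1, where 14.3% of all genes fell, 11.8% rose and 26.1% changed). Both comparisons share the shTardbp arrays. Without shGFP 3 the count against shGFP was 5. With the code letter as a block it was 4, since E2f1 (adjusted p = 0.676), E2f2 (0.128), E2f4 (0.0519) and Rb1 (0.209) did not pass, where 6.52% of all genes fell. Against shLuciferase, the call of Rbl1 (-0.26, adjusted p = 0.00560) was lost with the median of the probe sets (adjusted p = 0.276). E2f1 was -0.34 (adjusted p = 0.0160) against shGFP and -0.19 (adjusted p = 0.232) against shLuciferase, and E2f5 was -0.39 (adjusted p = 0.0384) and -0.29 (adjusted p = 0.163). E2f2 and E2f4 gave the same size against either control, at -0.88 and -0.87 for E2f2 and -0.52 and -0.52 for E2f4. The atypical pair differed in size, with E2f7 at -0.53 against shGFP and -0.85 against shLuciferase and E2f8 at -0.68 and -0.96. Rb1 fell against shGFP (-0.26, adjusted p = 0.0148; 0.0501 without shGFP 3) and did not pass against shLuciferase (change -0.000244, adjusted p = 0.999).

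**Figure D2:**
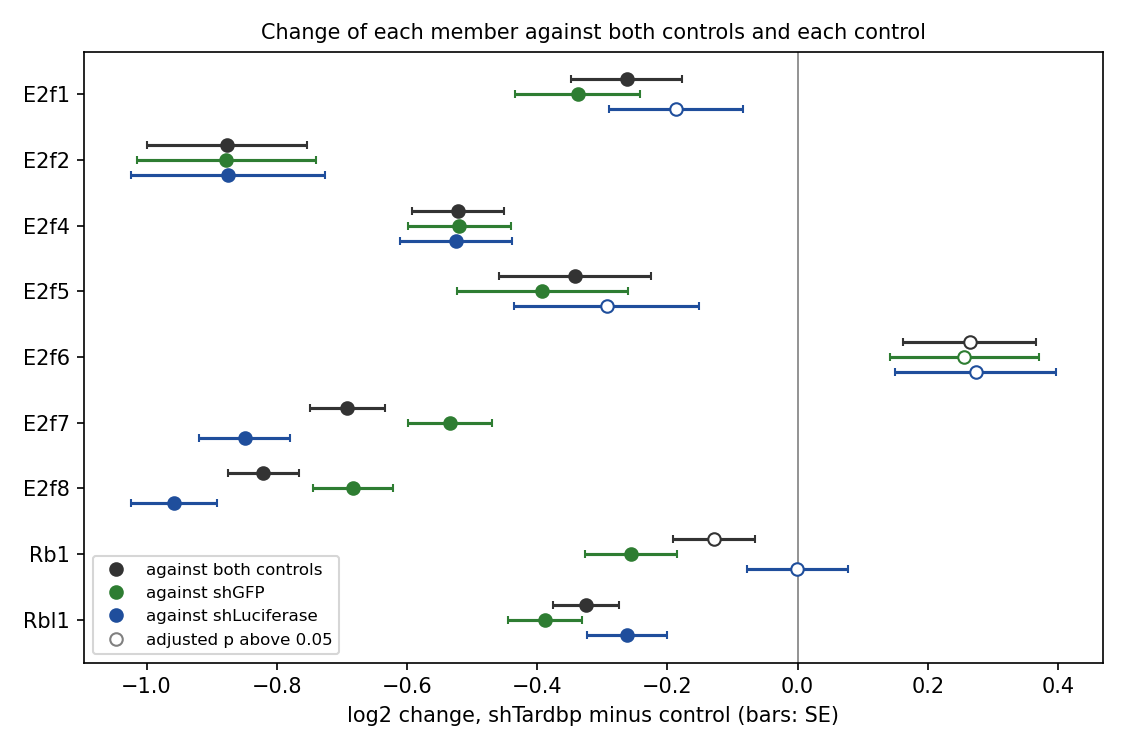
Log2 change of each gene in shTardbp (horizontal axis, bars are SE) against both controls in black, shGFP in green and shLuciferase in blue, with open symbols where the adjusted p was above 0.05. E2f2 and E2f4 keep the same change against either control, E2f7 and E2f8 fall further against shLuciferase, and E2f6 is the one gene to the right of 0.

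Between the control groups themselves 3 of the 9 genes differed, 2 lower and 1 higher in shGFP, where 4.82% of all genes were lower, 6.26% higher and 11.1% either. For E2f7 the difference of shGFP minus shLuciferase was -0.32 (SE 0.0698, adjusted p = 0.00951) and for E2f8 -0.27 (SE 0.0666, adjusted p = 0.0161). Rb1 was higher in shGFP by 0.26 (SE 0.0770, adjusted p = 0.0485). In E2f7 and E2f8 the difference between the controls was smaller than the shTardbp change, and in Rb1 it was larger. The Rb1 difference had adjusted p above 0.05 under 14 of 19 alternatives and none of the 3 calls was left with the median of the probe sets, and 1 was left with the replicate number as a block. The other 6 genes did not pass between the controls.

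Probe sets of 1 gene read different stretches of its transcripts, and their positions were not used here. Of the 136 probe sets of the family 122 were lower in shTardbp and 14 higher, and 69 fell past the threshold over all 194293 probe sets while none rose, where 8.12% of all probe sets fell, 7.31% rose and 15.4% changed. E2f7 had all 19 probe sets lower and all 19 past the threshold, by -0.42 to -1.11. In E2f8 all 18 were lower (-0.34 to -1.16) and 17 passed, in E2f4 all 11 were lower and 10 passed, and in E2f2 all 10 were lower and 8 passed. All 25 Rbl1 probe sets were lower, and 12 passed. E2f1 was mixed, with 2 of 10 probe sets past the threshold and changes of -0.61 to 0.17. In E2f5 all 9 were lower (-0.56 to -0.20) and 1 passed, and in Rb1 21 of 27 were lower and 0 passed. All 7 probe sets of E2f6 were higher (0.15 to 0.35), and none passed. With the code letter as a block 27 of the 136 passed. The share over all probe sets with that block was not counted, and the shares above belong to the fit without it. Over all genes 8.14% fell with the block and 17% without it.

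**Figure D3:**
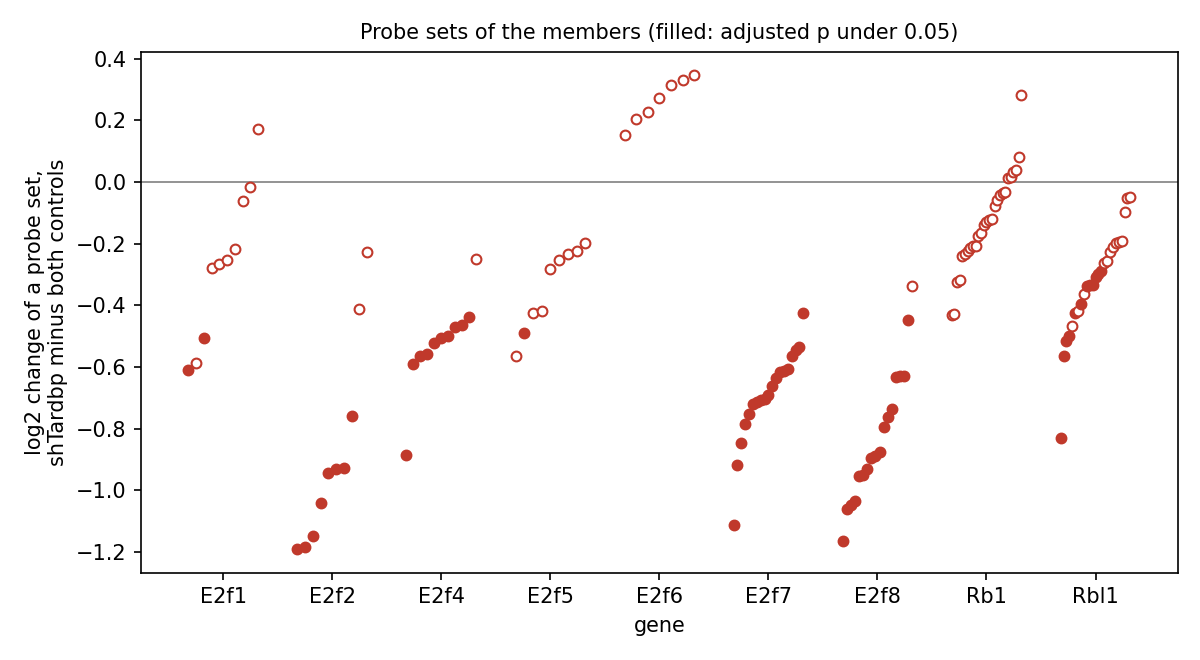
Log2 change in shTardbp against both controls (vertical axis) of each of the 136 probe sets, sorted within each gene and filled where the adjusted p was under 0.05. The probe sets of E2f7, E2f8, E2f4, E2f2, E2f5 and Rbl1 all lie below 0 and those of E2f6 all above it.

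A probe set that moves apart from the rest of its gene was looked for by testing each against the mean of the other probe sets of its gene. In 3 of the 136 the difference passed, where 1.36% of the 177027 probe sets tested did. The Rbl1 probe set 5212615 fell by 0.83 on the log2 scale, to 8.33 in shTardbp against 9.26 in shGFP and 9.06 in shLuciferase, which is 0.53 more than the rest of Rbl1 (difference -0.53, SE 0.109, adjusted p = 0.0396). In E2f8 the probe set 4319855 (5.84 in shTardbp, 6.04 in shGFP and 6.32 in shLuciferase) and in E2f2 the probe set 5076414 (3.31, 3.46 and 3.61 in the same order) moved less than their genes (differences 0.51 and 0.72, adjusted p = 0.0456 and 0.0324). The E2f2 probe set lay under the lower quartile of level in all 3 groups. It is among the 3 of the 10 E2f2 probe sets under it in shTardbp, and is the only 1 in each control group. These calls are fragile, since 0 of the 3 were left with the code letter or the replicate number as a block, and 0 to 2 were called when 1 array was left out.

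The genes whose values over the 11 arrays ran most like E2f8, E2f7 and E2f4 were found by the root mean square (RMS) difference after each gene's mean was subtracted, among 12975 genes. For E2f8 these were the phospholipase gene Pla2g3 (0.0555 on the log2 scale), E2f7 (0.0783) and the splicing factor gene Prpf31 (0.0806), where the median gene was 0.422 away. For E2f7 they were Prpf31 (0.0744), the thymidylate synthase gene Tyms (0.0769) and E2f8 (0.0783). The atypical pair thus had each other among the 3 nearest genes, and both were lower in shGFP than in shLuciferase, as were Pla2g3 (-0.32), Prpf31 (-0.27) and Tyms (-0.32). For E2f4 the nearest were the histone chaperone gene Asf1b (0.0770), Gpaa1 (0.0792), which acts in the attachment of GPI anchors, and Tcfap4 (0.0822), an older name of the transcription factor gene Tfap4. These likenesses rest on 3 groups and are a description.

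The partners of the family divided. Of 13 measured genes on a list of E2F partners and members of the MuvB complex, 7 fell and none rose, with a median change of -0.36, where 17% of all genes fell and 13.5% rose. Mybl2, the B-Myb factor that joins MuvB in S phase, fell 2.13-fold, with 8.65 to 8.90 in shTardbp against 9.61 to 9.91 in shGFP and 9.67 to 10.005 in shLuciferase (log2 change -1.09, SE 0.0835, adjusted p = 5.50e-07). Foxm1, the factor that joins later in the cycle, changed by -0.62, the MuvB subunit gene Lin9 by -0.61 and L3mbtl2, of the E2F6 Polycomb-type complex, by -0.53 (adjusted p at most 1.94e-05). The DP partner gene Tfdp2 did not pass (-0.02, SE 0.0814, adjusted p = 0.899), nor did the MuvB subunit gene Rbbp4 (0.07, adjusted p = 0.598). No probe set of the annotation used here carries the symbol Tfdp1.

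Upstream of the pocket proteins, 8 of 14 measured G1 regulators fell and 2 rose (median -0.29), where 17% of all genes fell and 13.5% rose. Against shGFP 8 fell and 0 rose, where 15.5% of all genes fell and 12.4% rose. Against shLuciferase 8 fell and 2 rose, where 14.3% of all genes fell and 11.8% rose. The E-type cyclin genes Ccne1 and Ccne2, which are both regulators and targets of E2F, fell 1.95-fold and 1.68-fold, and their kinase gene Cdk2 fell 1.45-fold. Ccne1 was at 7.03 to 7.44 in shTardbp, against 8.07 to 8.37 in shGFP and 8.03 to 8.26 in shLuciferase. Cdkn2c, an inhibitor of the D-type cyclin kinases, fell 1.71-fold. Among the D-type cyclins, picked here after their values were seen, Ccnd3 fell (-0.38, adjusted p = 0.00202), Ccnd1 rose slightly (0.14, adjusted p = 0.0397; 0.10 and adjusted p = 0.197 against shGFP) and Ccnd2 did not pass (0.11, adjusted p = 0.402). Of their kinase genes Cdk6 fell (-0.30, adjusted p = 0.0141) and Cdk4 did not pass (0.05, adjusted p = 0.600). The inhibitor gene Cdkn1b, which encodes p27, rose by 0.32 (adjusted p = 0.0104), with overlapping groups. It was 0.21 higher against shGFP (adjusted p = 0.131) and 0.44 higher against shLuciferase (adjusted p = 0.00668). Other inhibitor genes went the other way, with Cdkn2b at -0.40 (adjusted p = 0.000918) and Cdkn1a, which encodes p21, at -0.28 (adjusted p = 0.0143). Cdkn2a (-0.12, adjusted p = 0.219) and Cdkn1c (0.03, adjusted p = 0.849) did not pass.

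Downstream, target genes fell together. Of 35 measured E2F targets of the G1/S type 28 fell and none rose (17% and 13.5% of all genes), the other 7 (Rrm1, Mcm7, Pola1, Mcm6, Dnmt1, Dut and Slbp) not passing, and all 35 changes were negative (-1.07 to -0.08, median -0.56). In 25 of the 35 the shTardbp arrays lay below all controls, as in 9.82% of all genes. Mcm10, a replication initiation factor gene, fell 2.09-fold, with 8.47 to 8.65 in shTardbp against 9.56 to 9.61 in shGFP and 9.65 to 9.73 in shLuciferase. Tyms fell 1.71-fold. Of 28 measured late cell cycle genes of the MuvB type 27 fell and none rose (median -0.59), Cdc25c alone not passing. Melk, a kinase gene of mitosis, fell 2.30-fold and Cdc20, the activator of the anaphase-promoting complex, 2.19-fold. With the code letter as a block 20 of 35 and 23 of 28 fell, where 8.14% of all genes did. When only genes above the median level were tested, 25 of 31 and 27 of 28 fell, where 2313 of 7901 genes did. Between the controls 2 of the 35 and 0 of the 28 were lower in shGFP, and 0 and 1 were higher. Of all genes 4.82% were lower and 6.26% higher there.

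**Figure D4:**
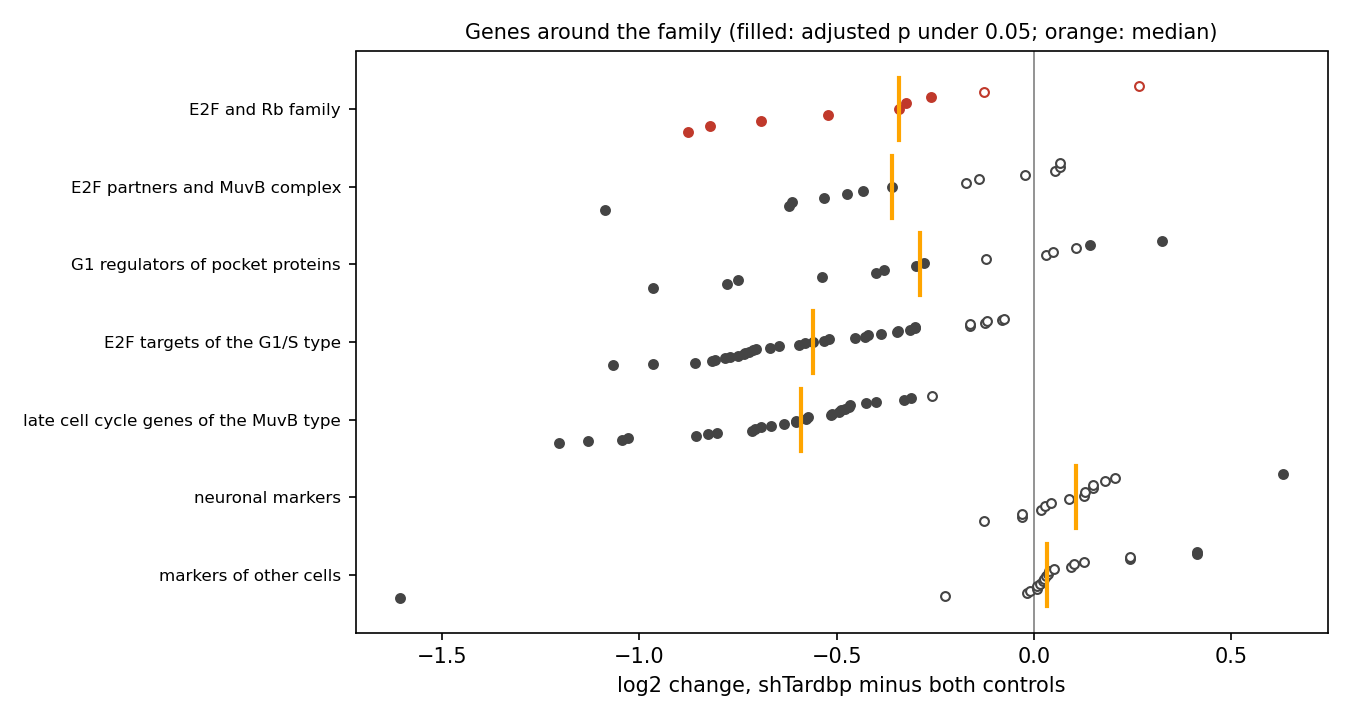
Log2 change in shTardbp against both controls (horizontal axis) of the 9 E2F and retinoblastoma family genes in red and of the genes of 6 lists in grey, filled where the adjusted p was under 0.05, with the median of each row in orange. The family (median -0.34) lies between 0 and the G1/S targets (-0.56) and late cell cycle genes (-0.59), and the marker lists centre near 0.

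The promoter elements printed above were then counted in these lists. The E2F motif was in 14 of 38 promoter windows of the G1/S list (36.8%) and in 1 of 26 windows of the late list (3.85%), against 2.26% of all windows. The CHR was in 18 of the 26 late windows (69.2%) and in 4 of the 38 G1/S windows (10.5%), against 17.9% of all. Of 375 measured genes outside the family and the lists whose windows held the E2F motif, 30.4% fell and 12.5% rose in shTardbp, and of the 10520 such genes without it 16.7% fell and 13.1% rose. For the CHR, 16.6% of 1862 such genes fell and 9.24% rose, and of the 9033 such genes without it 17.2% fell and 13.9% rose. Within the G1/S list 8 of 12 genes that held the E2F motif fell, and 11 of 14 that did not hold it. All counts are descriptions, since the motif also goes with base composition, and its part was not tested. The sets with and without a motif were not matched for expression level. Windows were joined to genes by identical symbol, which covered 10987 of the 15803 genes.

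**Figure D5:**
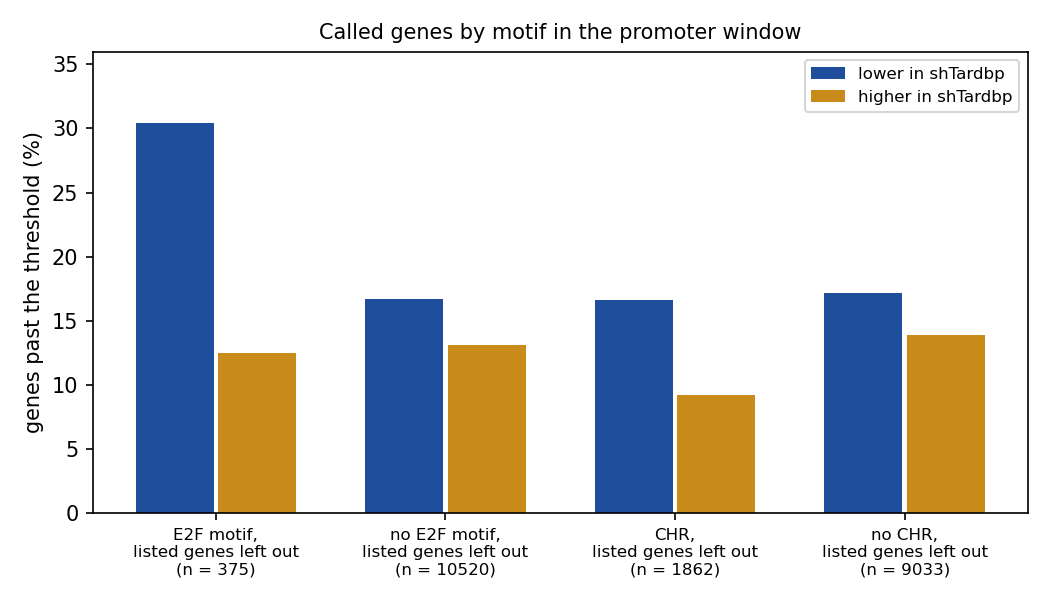
Share of measured genes (vertical axis, percent) that were lower (blue) or higher (yellow) in shTardbp, by whether a promoter window of the gene held the E2F motif or the CHR, with family and listed genes left out. The share lower was 30.4% with the E2F motif and 16.7% without it, and 16.6% with the CHR and 17.2% without it, differences that were not tested.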

How the data were processed

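The authors deposited a log2 value for each of 194293 probe sets. The submitters' processing notes name Partek and RMA (versions, settings and build not given in the sources used here). For 179496 probe sets the platform annotation gave 1 gene symbol, which made 15803 genes. A gene's value was the mean over its probe sets. One model with 3 groups was fitted by limma 3.58.1 (R 4.3.3). Dim features were kept, and the Benjamini-Hochberg adjustment ran over all genes or all probe sets. For probe set differences within a gene, each probe set had the mean of the others of its gene subtracted, in genes with at least 3. The fits were tested on simulated data. Detection calls were not used here, and the 25th percentile of the probe set values served as a level mark.

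The members and lists were chosen with earlier results of these data known. Named were the members, up to 4 genes per list with the smallest adjusted p, the 3 genes nearest in pattern to each of the 3 members with the smallest adjusted p (at least 3 probe sets, unnamed genes left out) and Tardbp. Other genes of the lists were picked after their values were seen. Same-numbered arrays deviated together between shTardbp and shGFP (correlations 0.116, 0.201 and 0.201) but not in every pair with shLuciferase (-0.0561 to 0.263), so numbers were not used in the main model. Gene order came from RefSeq (GRCm38.p6), in which 15765 genes were placed. Promoter sequences are those of RefSeq.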

Additional observations from a re-analysis of the deposited data

Results flagged for a closer look

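In Rb1 the array shGFP 3 stood apart from the other shGFP arrays. Its value of 8.74 was followed by 8.65 in the next array, and the gap was 0.895 of the range of the group, which ended at 8.64. This was the only such gap among 76 groups of 4 arrays checked over 38 genes. By chance about 1 in 20 groups would pass the cutoff, so 1 of 76 is not more than chance gives. Without shGFP 3 the Rb1 change against shGFP was -0.23 (adjusted p = 0.0501).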

How the results depend on the processing

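Against both controls E2f4, E2f7, E2f8 and Rbl1 kept their direction and call under all 19 alternatives, with adjusted p at most 0.0304. E2f2 kept them under 17 of 18, E2f1 under 12 of 19 and E2f5 under 10 of 19, while E2f6 was called under 6 of 19 and turned to -0.0127 with the code letter as a block. The family count was 5 to 7 when 1 array was left out (7 with all), 5 to 8 against shGFP (5 without shGFP 3), 5 to 6 against shLuciferase and 1 to 3 between the controls (1 without shGFP 5 or shLuciferase 1). Leaving out 1 array gave 26 to 30 G1/S targets, 26 to 27 late genes, 58 to 69 probe sets, 0 to 2 probe sets apart from their gene, and -0.44 to -0.37 for Tardbp. With the code letter as a block the family count was 5 against both controls and 4 against shGFP, 27 probe sets passed, 0 stood apart from their gene, and Tardbp was -0.29 (adjusted p = 0.173). Over all genes that block gave 2509 calls against both controls (4825 without it) and 1933 against shGFP (4416 without it), and the P arrays alone gave 2452 against shLuciferase (4120 with all arrays). How many genes these counts share was not counted. Within the P arrays E2f2, E2f4, E2f5, E2f7 and E2f8 were called (lone control assumed to vary like the others) and Rbl1 was not (-0.27, adjusted p = 0.115). Between the controls the median of the probe sets left 0 of 3 family calls (962 over all genes, 1752 with the mean), and array weights gave 2916 over all genes. With the replicate number as a block, 8 of 9 members fell or rose against both controls and 8 against shGFP, where it changed no call, 1 was left between the controls (1000 over all genes), 0 probe sets stood apart, and E2f6 passed (0.22, adjusted p = 0.0403). Subtracting the shift of neighbouring genes (medians -0.0300 to 0.0298 around the members) changed no other member's call than that of E2f6. The depth behind an array value is unknown. Falls of probe sets near background are of uncertain size, as in the 3 of 10 E2f2 probe sets under the lower quartile in shTardbp. As a gene E2f2 lay at the 48.6th percentile of level. Its change was -0.95 with probe sets under the 25th percentile of level left out.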
